A study of Mus musculus with 23 samples.

Results

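Hsd3b1 and Hsd3b6 encode 2 forms of 3-beta-hydroxysteroid dehydrogenase, and this account follows both genes in the testes of 3 inbred mouse strains on 2 diets. The members were taken by gene symbol, which gave 2 of the 28861 genes in the deposited count table, and both were among the 22873 genes tested. They were chosen by their measured levels, which differ between the strains in these same libraries, so the levels, folds, sums and ratios over strains below are descriptions with no test.

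The series measured polyA RNA of the testis in 23 libraries, each from its own sample of a male mouse, with 100 bp paired reads. The strains were C57BL/6J, the strain of the mouse reference genome, CAST/EiJ, a wild-derived strain, and NZO/HlLtJ, a strain prone to obesity and diabetes. Between 6 and 16 weeks of age the mice ate either control food with 10% fat or food high in fat and sugar with 44% fat, and both contained fiber. The 6 groups held 4 libraries each, apart from CAST/EiJ on 10% fat with 3, and all mice were labelled wild type and without other treatment. The question was how genotype and diet act together on gene expression.

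Enzymes of this family sit in the endoplasmic reticulum and mitochondria of steroid-forming cells. They turn pregnenolone into progesterone and dehydroepiandrosterone into androstenedione, a step that every route to testosterone must pass. In the mouse testis this step takes place in Leydig cells, the interstitial cells that answer luteinizing hormone. Several near copies of the gene lie side by side in the mouse genome. Hsd3b1 is known from gonads and adrenal gland, and Hsd3b6 from adult Leydig cells and from the aldosterone-forming cells of the adrenal cortex, where the circadian clock governs it.

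Hsd3b1 (ENSMUSG00000027871) spans chr3:98852194-98859794 and Hsd3b6 (ENSMUSG00000027869) chr3:98805504-98814443 in GRCm38, both on the minus strand and 37750 bases apart. The transcript used for Hsd3b1 in GENCODE M21 has 1855 bases in 5 exons with the coding sequence in exons 3 to 5. That of Hsd3b6 has 1802 bases in 4 exons with the coding sequence in exons 2 to 4. Both coding sequences have 1119 bases and align without a gap, with 1007 identical bases (89.99%) and 112 that differ. Telling the genes apart therefore rests on those bases, so the stretches of the reference sequence that are least and most alike over the length of 1 read are shown, with capitals at each base that differs. The least alike window covers coding bases 54 to 153, counted from the start codon, and differs at 22 of 100 bases. In Hsd3b1 it lies in exon 3 (chr3:98857820-98857911) and exon 4 (chr3:98856151-98856158), and in Hsd3b6 in exon 2 (chr3:98810902-98810993) and exon 3 (chr3:98807922-98807929).
Hsd3b1 coding bases 54 to 153: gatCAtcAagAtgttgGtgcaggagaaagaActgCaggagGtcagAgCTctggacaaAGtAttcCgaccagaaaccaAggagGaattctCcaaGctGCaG
Hsd3b6 coding bases 54 to 153: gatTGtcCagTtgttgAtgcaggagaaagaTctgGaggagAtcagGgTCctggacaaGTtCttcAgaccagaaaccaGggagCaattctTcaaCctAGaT
The most alike window covers coding bases 213 to 312 and differs at 2 bases. It lies in exons 4 (chr3:98855994-98856091) and 5 (chr3:98853362-98853363) of Hsd3b1 and in exons 3 (chr3:98807765-98807862) and 4 (chr3:98806670-98806671) of Hsd3b6.
Hsd3b1 coding bases 213 to 312: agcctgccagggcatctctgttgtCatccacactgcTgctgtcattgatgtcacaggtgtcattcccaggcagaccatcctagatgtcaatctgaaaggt
Hsd3b6 coding bases 213 to 312: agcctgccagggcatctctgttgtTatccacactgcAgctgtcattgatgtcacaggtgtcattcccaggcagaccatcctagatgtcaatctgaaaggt

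Over all 1020 windows of 100 coding bases, the number of differing bases ran from 2 to 22 with a median of 9. None of the 1851 windows of 100 bases in the Hsd3b1 transcripts was identical to a stretch of Hsd3b2, Hsd3b3, Hsd3b4, Hsd3b5, Hsd3b6, Hsd3b7, Gm10681 or Gm4450, the related genes searched. Of 1801 windows in the Hsd3b6 transcripts, 0 were shared with Hsd3b1, 48 with Hsd3b2 (2.67%) and 56 with Hsd3b3 (3.11%). The estimated counts followed the same line: that of Hsd3b1 was a whole number in 23 of 23 libraries, while that of Hsd3b6 was whole in 6 of 23 (tolerance 1e-06), so part of its reads had been divided among genes by the authors' counting. The reference is the C57BL/6J genome, and the CAST/EiJ and NZO/HlLtJ sequences of these genes were not analysed here. Whether strain variants lower the counts in those strains was not tested.

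**Figure D1:**
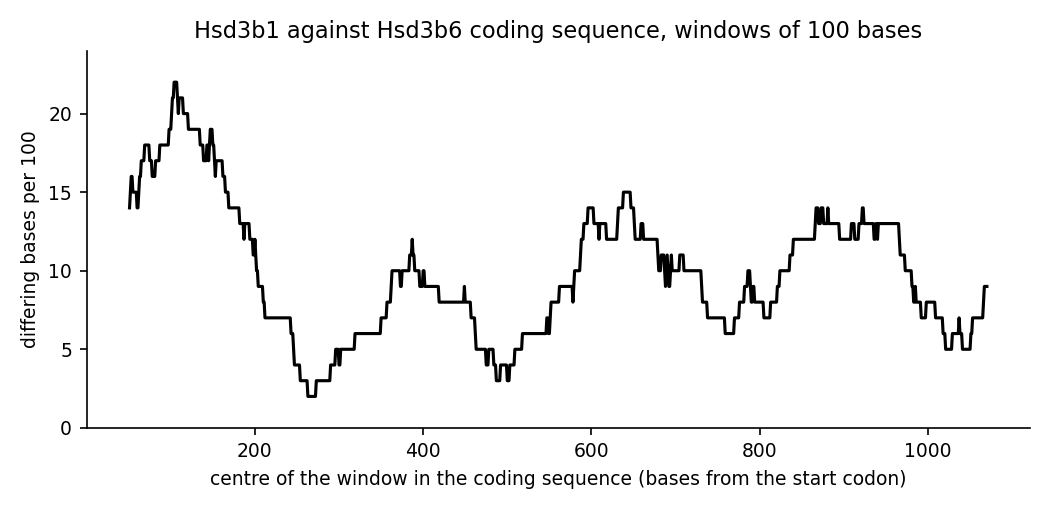
Number of bases that differ between the coding sequences of Hsd3b1 and Hsd3b6 in each window of 100 bases (vertical axis), against the centre of the window in bases from the start codon (horizontal axis). The line falls to 2 between 200 and 300 bases and reaches 22 near 100 bases.

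The 250 bases before each transcript start are shown because the levels of the 2 genes ran in opposite orders over the strains. They come from the RefSeq table for GRCm38.p6, in which both members were found, at chr3:98859795-98860044 for Hsd3b1 and chr3:98814444-98814693 for Hsd3b6 (minus strand, printed 5′ to 3′ in the direction of the gene). Capitals mark matches on either strand to 2 motifs, GATAA, the core bound by the zinc finger factors Gata4 and Gata6, and TATTTAA, which resembles the box bound by the basal transcription machinery. The matches do not overlap, and the motifs were chosen with the sequences in view.
Hsd3b1 promoter: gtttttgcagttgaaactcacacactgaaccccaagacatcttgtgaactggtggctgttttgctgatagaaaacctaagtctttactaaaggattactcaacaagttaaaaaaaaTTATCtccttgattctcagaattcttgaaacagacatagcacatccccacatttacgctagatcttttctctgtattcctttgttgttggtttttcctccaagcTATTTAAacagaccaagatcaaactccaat
Hsd3b6 promoter: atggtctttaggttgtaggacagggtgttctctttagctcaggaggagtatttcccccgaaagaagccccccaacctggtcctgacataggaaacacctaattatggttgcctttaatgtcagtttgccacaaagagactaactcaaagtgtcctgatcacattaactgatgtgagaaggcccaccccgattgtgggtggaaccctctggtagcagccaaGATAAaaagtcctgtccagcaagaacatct
GATAA was found once in each, 134 bases before the start of Hsd3b1 (on the opposite strand) and 30 bases before the start of Hsd3b6, and it occurs in 22.5% of 32536 promoters of the same length. TATTTAA was found 30 bases before the start of Hsd3b1, with no match in Hsd3b6, and occurs in 4.16% of promoters. AGGTCA, the core bound by steroidogenic nuclear receptors, CACGTG, the E-box, and TTACGTAA, the palindromic form of the D-box, had no match in either window. They occur in 14.0%, 6.04% and 0.114% of promoters. Only these exact letters were searched, so other forms of the same motifs may be present. These are letters of the reference genome and no measurement of binding.

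Library totals ran from 21.9 to 78.7 M estimated counts (M, 1e+06). Hsd3b1 had 1518 to 14700 counts per library and Hsd3b6 126 to 3829. The lowest Hsd3b6 counts were those of NZO/HlLtJ, 126 to 301 per library, so its values there rest on fewer reads. The lowest total belonged to C57BL/6J 10% fat replicate 4. Markers of the testis cell types were present in all libraries, with summed Sertoli markers at 877 CPM or more and summed Leydig markers outside steroid synthesis at 701 CPM or more, where CPM are counts per 1e+06 counts after TMM scaling. Epididymal transcripts, from the duct beside the testis, summed to 138 CPM in CAST/EiJ 44% fat replicate 2 and to 24.8 CPM in C57BL/6J 10% fat replicate 2, against 9.32 CPM or less in the other libraries. These 2 libraries were not at either end of their group for Hsd3b1 or Hsd3b6, apart from the lowest Hsd3b1 value of CAST/EiJ on 44% fat. ID numbers in the sample titles fall into 3 runs, which no label calls batches. Where nothing says that samples were processed apart, p-values measure the spread between these samples only.

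Hsd3b1 was low in C57BL/6J and CAST/EiJ and high in NZO/HlLtJ, on both diets. In C57BL/6J on 10% fat the libraries stood at 52.3, 58.1, 50.5 and 69.7 CPM, a mean of 57.7 ± 8.67 (SD, n = 4). On 44% fat they stood at 61.1, 67.2, 59.8 and 55.2 CPM, a mean of 60.8 ± 4.95 (SD, n = 4). The diets overlapped fully in this strain. CAST/EiJ libraries had 68.2, 55.5 and 61.3 CPM on 10% fat (61.7 ± 6.36, SD, n = 3). On 44% fat they had 72.5, 68.9, 72.2 and 74.8 CPM (72.1 ± 2.44, SD, n = 4), each above every CAST/EiJ library on 10% fat, by a narrow margin. NZO/HlLtJ libraries had 286.0, 280.8, 286.4 and 353.9 CPM on 10% fat (301.8 ± 34.8, SD, n = 4) and 331.3, 331.9, 347.0 and 322.3 CPM on 44% fat (333.2 ± 10.2, SD, n = 4). The lowest NZO/HlLtJ library lay far above the highest of any other strain, 74.8 CPM.

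Hsd3b6 ran the other way and stepped down from C57BL/6J to CAST/EiJ to NZO/HlLtJ. The C57BL/6J libraries had 100.2, 93.2, 97.8 and 58.6 CPM on 10% fat (87.4 ± 19.5, SD, n = 4) and 90.8, 80.5, 52.6 and 93.7 CPM on 44% fat (79.4 ± 18.7, SD, n = 4). One library in each diet group stood well below the other 3. CAST/EiJ had 37.6, 26.5 and 35.9 CPM on 10% fat (33.4 ± 5.97, SD, n = 3) and 36.5, 28.1, 33.6 and 25.7 CPM on 44% fat (31.0 ± 4.95, SD, n = 4). The diets overlapped, and no CAST/EiJ library reached the lowest C57BL/6J library. NZO/HlLtJ had 5.61, 6.00, 5.99 and 7.25 CPM on 10% fat (6.21 ± 0.712, SD, n = 4) and 3.59, 3.01, 4.68 and 3.51 CPM on 44% fat (3.70 ± 0.703, SD, n = 4). Here all 4 libraries on 44% fat lay below all 4 on 10% fat.

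**Figure D2:**
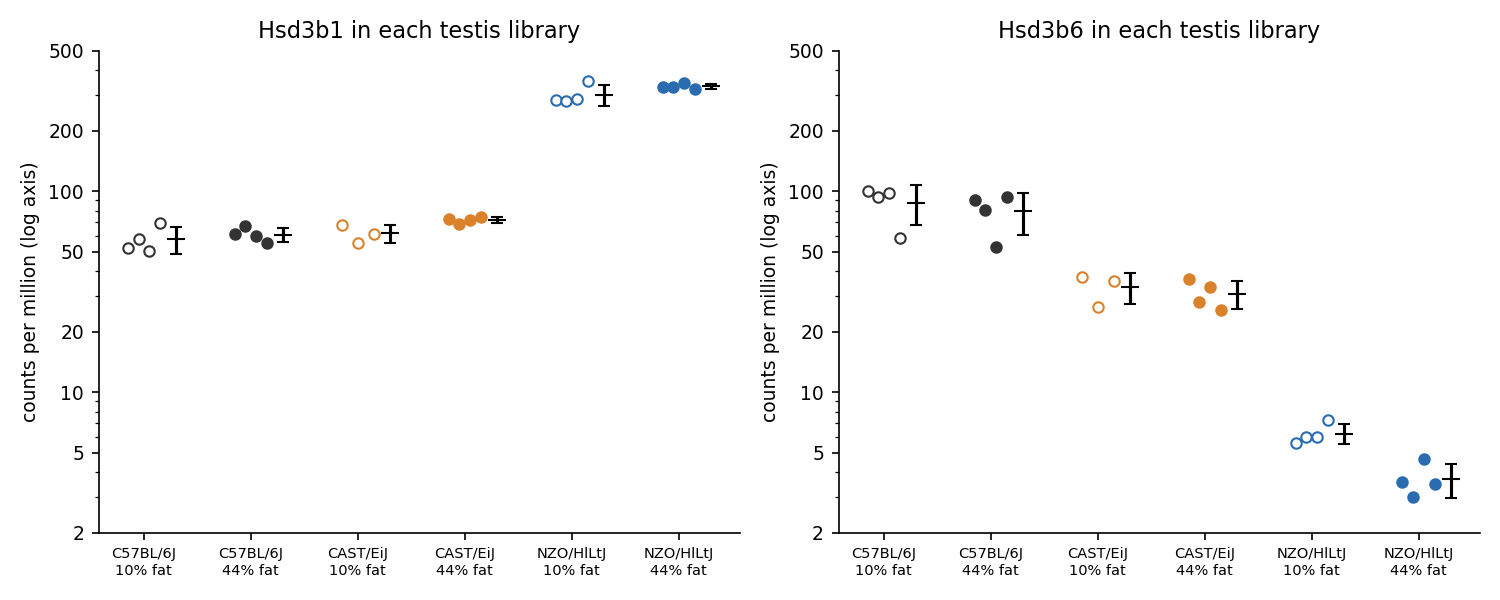
Hsd3b1 (left) and Hsd3b6 (right) in CPM on a log axis, 1 point per library, open for 10% fat and filled for 44% fat, with mean and SD beside each group. Hsd3b1 stands between 280.8 and 353.9 in NZO/HlLtJ and at 74.8 or below elsewhere, and Hsd3b6 stands between 52.6 and 100.2 in C57BL/6J and between 3.01 and 7.25 in NZO/HlLtJ.

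Averaged over diets, Hsd3b1 stood at 59.2 ± 6.75 CPM in C57BL/6J (SD, n = 8), 67.6 ± 6.89 in CAST/EiJ (SD, n = 7) and 317.5 ± 29.1 in NZO/HlLtJ (SD, n = 8). The fitted log2 fold change was 2.42 for NZO/HlLtJ minus C57BL/6J, 2.25 for NZO/HlLtJ minus CAST/EiJ and 0.17 for CAST/EiJ minus C57BL/6J. Among all 22873 genes, these were the 236th, 1305th and 7750th largest increases. The level of Hsd3b6 in C57BL/6J was 83.4 ± 18.2 CPM, that in CAST/EiJ 32.0 ± 5.07 CPM and that in NZO/HlLtJ 4.96 ± 1.496 CPM, with log2 fold changes of -4.13 for NZO/HlLtJ minus C57BL/6J, -2.75 for NZO/HlLtJ minus CAST/EiJ and -1.37 for CAST/EiJ minus C57BL/6J. It had the 195th, 526th and 2387th largest decreases. Strain differences were widespread: 59.1%, 72.1% and 66.8% of genes passed the threshold in these 3 comparisons, an adjusted p under 0.05 in edgeR's quasi-likelihood test. In bulk tissue, a change in the number of cells that hold a transcript and a change in RNA per cell cannot be told apart.

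In the order of group means, Hsd3b1 was lowest in C57BL/6J on 10% fat, followed by C57BL/6J on 44% fat and CAST/EiJ on 10% fat, and these neighbours overlapped. CAST/EiJ on 44% fat came next, parted from CAST/EiJ on 10% fat, although the highest C57BL/6J library on 10% fat, at 69.7 CPM, lay inside its range. After a gap came the 2 NZO/HlLtJ groups, which overlapped with each other. For Hsd3b6 the order was NZO/HlLtJ on 44% fat, NZO/HlLtJ on 10% fat, CAST/EiJ and then C57BL/6J. The ranges parted at each step but those between the diets of CAST/EiJ and of C57BL/6J.

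To compare the genes with each other, counts were divided by transcript length and a log2 ratio of Hsd3b1 to Hsd3b6 was taken in each library. In C57BL/6J on 10% fat the log2 ratio was -0.98, -0.72, -0.995 and 0.21, and on 44% fat -0.61, -0.30, 0.14 and -0.81. Hsd3b6 was thus the more abundant form in 6 of 8 C57BL/6J libraries and Hsd3b1 in 2. CAST/EiJ had 0.82, 1.02 and 0.73 on 10% fat and 0.95, 1.25, 1.06 and 1.501 on 44% fat, so Hsd3b1 was the more abundant form in 7 of 7. In NZO/HlLtJ the log2 ratio was 5.63, 5.504, 5.53 and 5.57 on 10% fat and 6.48, 6.74, 6.17 and 6.47 on 44% fat. Hsd3b1 predominated in 8 of 8 libraries, by 45.4- to 106.8-fold. The share of Hsd3b6 in the summed level per length in C57BL/6J was 58.6% ± 8.01 (SD, n = 8), in CAST/EiJ 32.7% ± 3.91 (SD, n = 7), and in NZO/HlLtJ only 1.60% ± 0.524 (SD, n = 8).

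**Figure D3:**
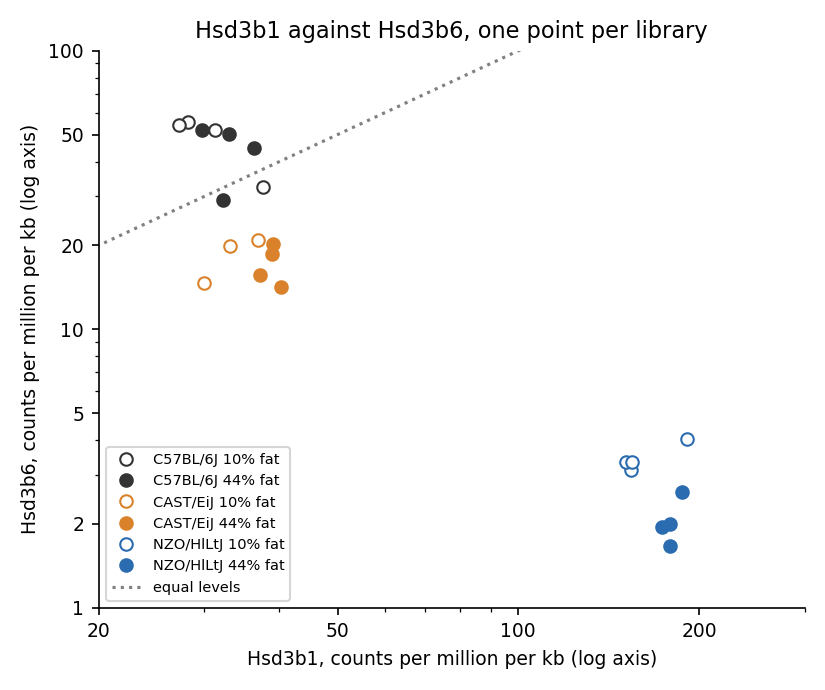
Hsd3b6 against Hsd3b1 in CPM per kilobase of transcript, both on log axes, 1 point per library; the dotted line marks equal levels. Of the C57BL/6J libraries 6 lie above the line and 2 below it, the 7 CAST/EiJ libraries lie below it, and the 8 NZO/HlLtJ libraries lie at the far lower right.

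The sum of both genes was not held level between strains. It was 78.2 ± 8.10 CPM per kilobase in C57BL/6J (SD, n = 8), 54.2 ± 4.91 in CAST/EiJ (SD, n = 7) and 173.9 ± 15.5 in NZO/HlLtJ (SD, n = 8), and the ranges of the strains did not overlap. The NZO/HlLtJ mean was 2.22 times that of C57BL/6J and 3.21 times that of CAST/EiJ. From C57BL/6J to NZO/HlLtJ, Hsd3b1 gained 258.3 CPM while Hsd3b6 lost 78.5 CPM, so the loss of the one was smaller than the gain of the other. From C57BL/6J to CAST/EiJ, Hsd3b6 lost 51.4 CPM and Hsd3b1 gained 8.41 CPM. C57BL/6J 10% fat replicate 4, with the lowest Hsd3b6 of its group, had the highest Hsd3b1, and its sum of 70.1 CPM per kilobase was below the 81.5 to 83.8 of the other 3. C57BL/6J 44% fat replicate 3, the other library with low Hsd3b6, had a sum of 61.4 against 80.9 to 83.3. NZO/HlLtJ 10% fat replicate 4 was high for both genes, and its log2 ratio of 5.57 lay inside the range of the other 3.

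**Figure D4:**
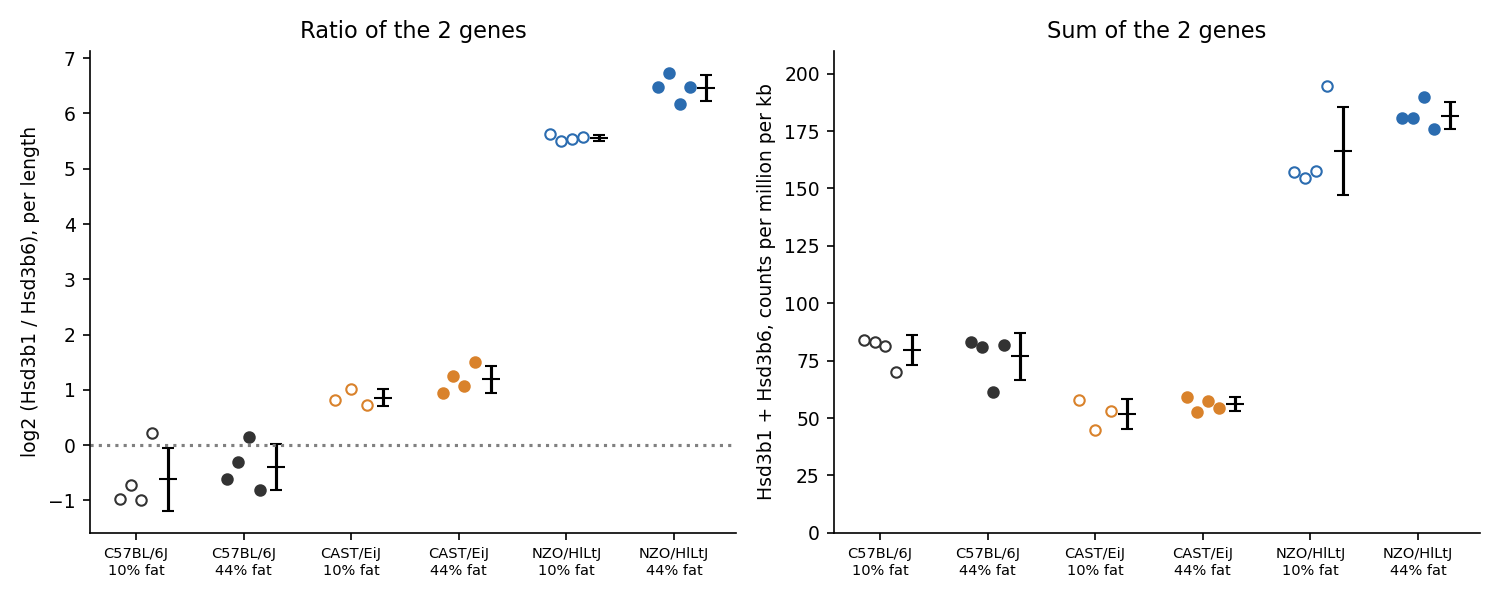
Log2 ratio of Hsd3b1 to Hsd3b6 per length (left; the dotted line marks equal levels) and their sum in CPM per kilobase (right), 1 point per library, open for 10% fat and filled for 44% fat, with mean and SD beside each group. The NZO/HlLtJ ratios on 44% fat, 6.17 to 6.74, lie above those on 10% fat, 5.504 to 5.63, while the sums of the 2 diets overlap.

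The diets were compared next. The genes were chosen for their pattern over the strains. Earlier results of these data were known at that choice, so the diet p-values may not be free of it. Hsd3b6 was lower on 44% fat in NZO/HlLtJ, at 3.70 against 6.21 CPM, a log2 fold change of -0.76 (SE 0.220), with all 4 libraries below the other 4. Its p of 0.00176 ranked 55th among 22873 genes, and the adjusted p was 0.688 by edgeR, so the difference did not pass. In C57BL/6J the log2 fold change of Hsd3b6 was -0.14 (SE 0.150, edgeR adjusted p = 1) and in CAST/EiJ -0.10 (SE 0.170, edgeR adjusted p = 1). Leaving out 1 library at a time, the C57BL/6J value ran from -0.29 without 10% fat replicate 4 to 0.0097, with the sign turned, without 44% fat replicate 3. The CAST/EiJ value ran from -0.24 without 10% fat replicate 2 to -0.0093 without 10% fat replicate 1, and was -0.058 without 44% fat replicate 2, the library with epididymal transcripts. Averaged over strains it was -0.34 (SE 0.105) with an unadjusted p of 0.00349 in edgeR's fit across all genes and an adjusted p of 1. Only 0.00874% of genes passed in C57BL/6J, 0% in CAST/EiJ, 0.00437% in NZO/HlLtJ and 0% averaged over strains. At an unadjusted p under 0.05 these were 670, 941, 1555 and 896 genes, and by DESeq2 3 passed in CAST/EiJ and 6 averaged over strains.

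Hsd3b1 had the opposite sign on 44% fat, by a small amount in each strain, and did not pass in any. The log2 fold change was 0.08 in C57BL/6J (SE 0.0827, edgeR adjusted p = 1), 0.22 in CAST/EiJ (SE 0.0884, edgeR adjusted p = 1) and 0.14 in NZO/HlLtJ (SE 0.0780, edgeR adjusted p = 0.769). Leaving out 1 library at a time, the C57BL/6J value ran from 0.025 without 10% fat replicate 3 to 0.18 without 10% fat replicate 4. The NZO/HlLtJ value was 0.23 without 10% fat replicate 4, and the CAST/EiJ value 0.25 without 44% fat replicate 2. Averaged over strains it was 0.15 (SE 0.0480) with an unadjusted p of 0.00421 in edgeR's fit across all genes and an adjusted p of 1. The diet effect did not pass a test of a difference between strains for Hsd3b1 (edgeR adjusted p = 0.962) or for Hsd3b6 (edgeR adjusted p = 0.943). In that test 0% of genes passed, and 1121 had an unadjusted p under 0.05.

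The ratio takes in both genes. In NZO/HlLtJ the log2 ratio was 5.56 ± 0.0520 on 10% fat and 6.46 ± 0.234 on 44% fat (SD, n = 4 each), a difference of 0.91 without overlap (two-sided exact permutation p = 0.0286, the smallest that 4 against 4 libraries allow, adjusted p = 0.172 over 6 tests). In the 1 run of ID numbers that holds both diets of this strain, with 2 libraries of each, the difference was 1.04. The other 2 runs held 1 diet of this strain each. The mean log2 ratio of CAST/EiJ was 0.86 on 10% fat and 1.19 on 44% fat (exact permutation p = 0.114, adjusted p = 0.286) and that of C57BL/6J -0.62 and -0.39 (exact permutation p = 0.514, adjusted p = 0.571). The C57BL/6J difference of 0.23 ran from 0.048 without 44% fat replicate 3 to 0.504 without 10% fat replicate 4. The within-run differences were 0.13, 0.13 and 0.77 in CAST/EiJ and 0.36, 0.42 and 0.06 in C57BL/6J. For the log2 sum the differences were -0.06, 0.12 and 0.13 in C57BL/6J, CAST/EiJ and NZO/HlLtJ, with exact permutation adjusted p of 0.571, 0.571 and 0.286. Without CAST/EiJ 10% fat replicate 2 the CAST/EiJ value was 0.019, without 10% fat replicate 1 it was 0.20, and without NZO/HlLtJ 10% fat replicate 4 the NZO/HlLtJ value was 0.21. With 3 against 4 libraries the smallest possible p is 0.0571.

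The other Hsd3b genes stood at a few CPM or less in every strain, and the relatives Nsdhl, a gene of cholesterol synthesis, and Sdr42e1 were also measured. Nsdhl had 10.4 ± 1.02, 18.8 ± 1.27 and 17.8 ± 2.34 CPM in C57BL/6J, CAST/EiJ and NZO/HlLtJ, and was higher in NZO/HlLtJ and in CAST/EiJ than in C57BL/6J, by log2 fold changes of 0.77 and 0.85 (edgeR adjusted p = 3.96e-10 and 4.78e-11). Sdr42e1 had 4.87 ± 0.392, 4.16 ± 0.589 and 4.87 ± 0.644 CPM. It passed in CAST/EiJ minus C57BL/6J (log2 fold change -0.22, edgeR adjusted p = 0.0457) and in NZO/HlLtJ minus CAST/EiJ (0.22, edgeR adjusted p = 0.0423). In NZO/HlLtJ the means of Nsdhl and Hsd3b2 were above that of Hsd3b6, 4.96 CPM. Hsd3b2, a neighbour on chromosome 3, stood at 6.12 ± 0.695, 6.76 ± 0.791 and 5.497 ± 0.316 CPM in C57BL/6J, CAST/EiJ and NZO/HlLtJ (SD, n = 8, 7 and 8), and passed in 1 of 3 strain comparisons (NZO/HlLtJ minus CAST/EiJ, log2 fold change -0.30, edgeR adjusted p = 0.00131). Hsd3b3 was near 0, at 0.0365 CPM or less on average in each strain. Hsd3b7, on chromosome 7, which acts in bile acid synthesis, had 2.71 ± 0.381, 2.09 ± 0.637 and 3.49 ± 0.716 CPM in C57BL/6J, CAST/EiJ and NZO/HlLtJ. It passed in NZO/HlLtJ minus C57BL/6J (log2 fold change 0.38, edgeR adjusted p = 0.0271) and in CAST/EiJ minus C57BL/6J (-0.38, edgeR adjusted p = 0.035). It also passed in NZO/HlLtJ minus CAST/EiJ (0.76, edgeR adjusted p = 7.75e-05). Hsd3b4 and the predicted gene Gm10681 had 94.2 and 88.6 counts over the 8 C57BL/6J libraries, 4.82 and 5.58 over the 7 CAST/EiJ libraries and none in NZO/HlLtJ at the level of a read. Their counts were fractional and alike, so reads had been divided between them and their separate values are uncertain. Hsd3b6 pooled with Hsd3b2, Hsd3b3, Hsd3b4, Gm10681 and Gm4450, the relatives in the cluster, came to 90.7 ± 17.8, 39.5 ± 5.10 and 11.2 ± 1.46 CPM in C57BL/6J, CAST/EiJ and NZO/HlLtJ. The relatives alone came to 7.28 ± 0.769, 7.56 ± 0.813 and 6.25 ± 0.484 CPM.

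Around the 2 genes, 16 others in the count table lay within 500 kb, of which 14 were tested. In NZO/HlLtJ minus C57BL/6J 6 were higher and 3 lower, in CAST/EiJ minus C57BL/6J 6 and 3, and in NZO/HlLtJ minus CAST/EiJ 2 and 6, against backgrounds of 30.4% and 28.7%, 32.7% and 34.1%, and 39.6% and 32.5% of all genes. Hao2, a peroxisomal hydroxy acid oxidase gene next to Hsd3b1, was highest in CAST/EiJ, at 5.99 ± 0.579 CPM (SD) against 3.09 ± 0.516 in C57BL/6J and 4.38 ± 0.932 in NZO/HlLtJ. Phgdh, the entry enzyme of serine synthesis, was also highest in CAST/EiJ, at 40.7 ± 2.48 against 16.2 ± 1.22 and 22.4 ± 1.92 CPM. The transcription factor gene Tbx15 was lowest in NZO/HlLtJ, at 0.636 ± 0.149 against 1.505 ± 0.331 and 2.33 ± 0.340 CPM. No neighbour passed in a diet comparison.

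**Figure D5:**
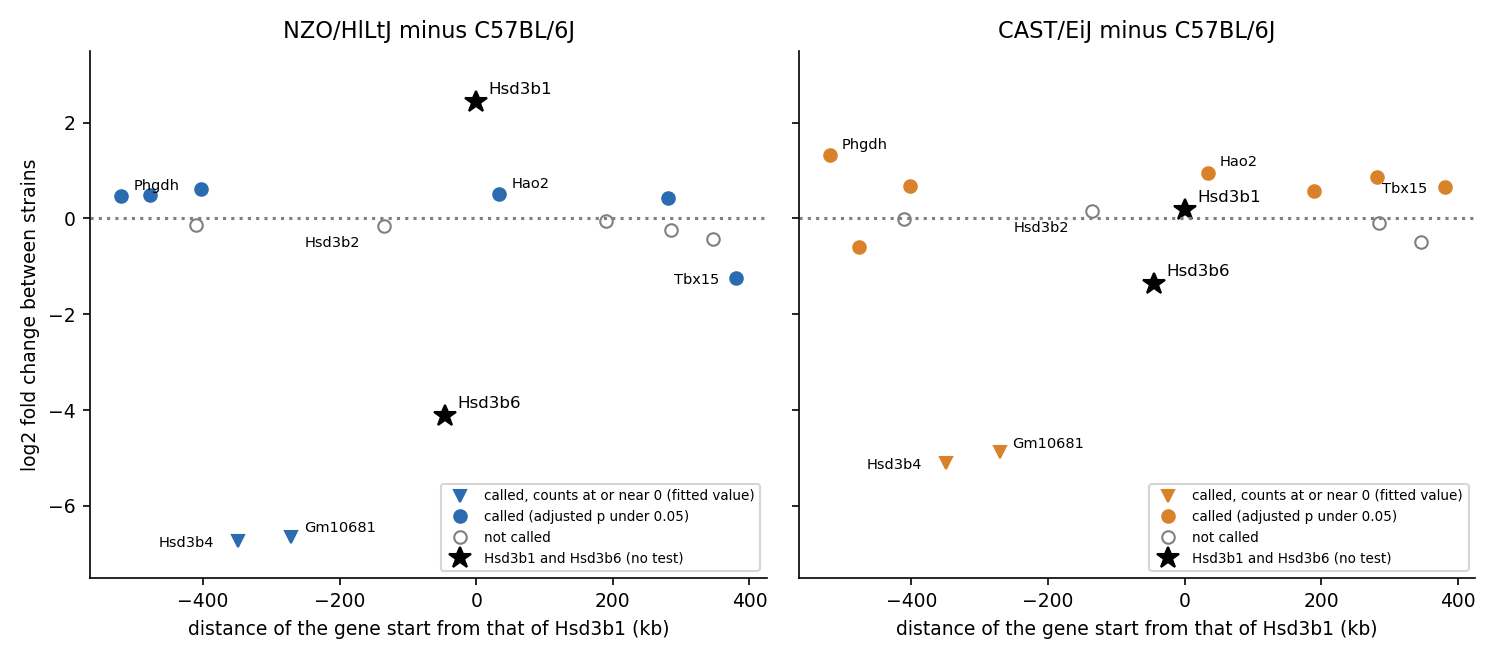
Log2 fold change between strains (vertical axis) of the tested genes of the neighbourhood that start within 550 kb of the start of Hsd3b1 against the distance of each gene start from that of Hsd3b1 in kilobases (horizontal axis), for NZO/HlLtJ and CAST/EiJ against C57BL/6J; filled points passed the threshold, stars mark the 2 members. Triangles mark Hsd3b4 and Gm10681, whose counts were at or near 0 outside C57BL/6J, so their fitted values are not measures of size.

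The steps before and after 3-beta-hydroxysteroid dehydrogenase differed among themselves. Upstream, Star, which brings cholesterol into mitochondria, passed in no strain comparison, at 89.2 ± 21.9, 77.8 ± 20.8 and 71.9 ± 30.9 CPM in C57BL/6J, CAST/EiJ and NZO/HlLtJ (SD, n = 8, 7 and 8). Cyp11a1, which makes pregnenolone, was lowest in NZO/HlLtJ, at 109.5 ± 16.4, 152.9 ± 24.8 and 77.4 ± 23.1 CPM. Cyp17a1, which makes the androgen precursors, was highest there, at 285.6 ± 51.2, 166.3 ± 33.0 and 524.8 ± 85.2 CPM. Hsd17b3, which forms testosterone from androstenedione, stood at 19.1 ± 1.13, 20.3 ± 2.40 and 58.5 ± 6.98 CPM, low in C57BL/6J and CAST/EiJ and high in NZO/HlLtJ, the same order as Hsd3b1. The luteinizing hormone receptor gene Lhcgr rose over the strains, at 7.99 ± 1.45, 16.8 ± 2.02 and 26.0 ± 3.403 CPM, and the Leydig hormone gene Insl3 had 137.0 ± 9.50, 81.9 ± 13.0 and 174.2 ± 46.6 CPM. Of the 15 genes of androgen synthesis around this step, 10 were higher and 1 lower in NZO/HlLtJ than in C57BL/6J (median log2 fold change 0.30, against 0.01 over all genes), where 30.4% of all genes were higher and 28.7% lower. In CAST/EiJ minus C57BL/6J 7 were higher and 2 lower (median 0.19 against 0.00), beside 32.7% and 34.1% of all genes. In NZO/HlLtJ minus CAST/EiJ 5 and 4 of the 15 (median 0.01 against 0.06) were near the shares of all genes, 39.6% and 32.5%.

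Genes of luteinizing hormone signalling and steroidogenic transcription factors were higher in 16 and lower in 3 of 23 in NZO/HlLtJ minus C57BL/6J (median 0.38), beside 30.4% and 28.7% of all genes. Besides Lhcgr these included Nr5a1, the nuclear receptor that drives steroidogenic genes, at 50.5 ± 5.49 against 29.0 ± 2.98 CPM. In CAST/EiJ minus C57BL/6J 14 were higher and 2 lower (median 0.14), beside 32.7% and 34.1% of all genes, and in NZO/HlLtJ minus CAST/EiJ 12 and 7 (median 0.20), beside 39.6% and 32.5%. Against the same shares of all genes, of 13 genes of androgen metabolism 4 were higher and 3 lower in NZO/HlLtJ than in C57BL/6J (median 0.20), 2 and 5 in CAST/EiJ (median -0.29), and 8 and 3 in NZO/HlLtJ minus CAST/EiJ (median 0.63). Akr1c21, a hydroxysteroid dehydrogenase gene, stood at 0.0678 ± 0.0590 CPM in C57BL/6J against 7.83 ± 0.755 in CAST/EiJ and 4.66 ± 0.360 in NZO/HlLtJ. Circadian clock genes, considered because the clock governs Hsd3b6 in the adrenal, were higher in 9 and lower in 4 of 19 in NZO/HlLtJ minus C57BL/6J (median 0.11). In CAST/EiJ minus C57BL/6J the counts of 6 and 7 (median -0.06) were near the shares of all genes, 32.7% and 34.1%, and in NZO/HlLtJ minus CAST/EiJ the counts were 12 and 3 (median 0.26), beside 39.6% and 32.5%. In the diet comparisons no member of any of the 14 gene lists passed.

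Markers of cell types moved with the strains too, and their part in the levels of Hsd3b1 and Hsd3b6 was not tested. Their counts stand beside 30.4% of all genes higher and 28.7% lower in NZO/HlLtJ minus C57BL/6J, and 32.7% and 34.1% in CAST/EiJ minus C57BL/6J. Of 16 Leydig markers outside steroid synthesis, 11 were higher and 3 lower in NZO/HlLtJ than in C57BL/6J (median 0.60), and the summed level was 1083 to 1392 CPM against 802 to 856 CPM, with 701 to 804 CPM in CAST/EiJ. Fabp3, a fatty acid carrier gene, had 199.96 ± 28.8 CPM in NZO/HlLtJ against 79.8 ± 7.13 in C57BL/6J, while the kallikrein gene Klk1b27 had 0.341 ± 0.116 against 5.67 ± 1.82 CPM. In CAST/EiJ minus C57BL/6J 6 Leydig markers were higher and 7 lower (median -0.12), near the shares of all genes. Fetal-type Leydig and progenitor markers were higher in 7 and lower in 0 of 8 in NZO/HlLtJ minus C57BL/6J. Their sums were 128.5 to 174.8 CPM against 78.7 to 90.7 CPM. CAST/EiJ sums, 109.0 to 118.0 CPM, also lay above every C57BL/6J sum, with 4 markers higher and 1 lower than in C57BL/6J. Macrophage markers were higher in 7 of 10 in NZO/HlLtJ minus C57BL/6J (119.3 to 165.2 CPM against 100.7 to 122.8 CPM). Sertoli markers were higher in 11 of 12 there (988 to 1336 CPM against 877 to 944 CPM). Against C57BL/6J, CAST/EiJ had 4 macrophage markers higher and 3 lower (108.0 to 120.1 CPM). Of its Sertoli markers 4 were higher and 1 lower (905 to 954 CPM). Myoid markers were higher in 4 and lower in 1 of 7 in NZO/HlLtJ minus C57BL/6J. All 7 were lower in CAST/EiJ than in C57BL/6J, with sums of 212.7 to 245.5 CPM against 373.4 to 408.8 CPM.

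Of the adrenal cortex markers, which share steroid genes with Leydig cells, Cyp21a1, the steroid 21-hydroxylase gene, stood at 23.8 ± 4.93 CPM in NZO/HlLtJ (SD, n = 8) against 1.16 ± 0.248 in C57BL/6J (SD, n = 8) and 0.936 ± 0.143 in CAST/EiJ (SD, n = 7). Cyp11b2, aldosterone synthase, a defining gene of the adrenal cells that hold Hsd3b6, lay between 0 and 0.234 CPM in all 23 libraries. Cyp11b1, which makes corticosterone, was at 1.35 ± 0.337, 0.840 ± 0.221 and 1.10 ± 0.165 CPM in C57BL/6J, CAST/EiJ and NZO/HlLtJ. The summed adrenal list was 21.8 to 35.1 CPM in NZO/HlLtJ, against 4.43 to 6.62 CPM in C57BL/6J and 3.99 to 7.26 CPM in CAST/EiJ, and most of the NZO/HlLtJ sum was Cyp21a1. Of the 4 adrenal genes tested, 2 were higher in NZO/HlLtJ than in C57BL/6J and 0 lower, beside 30.4% and 28.7% of all genes. The other besides Cyp21a1 was Mrap, which helps the corticotropin receptor to the cell surface, at 3.37 ± 1.23 against 2.56 ± 0.572 CPM. Mrap was highest in CAST/EiJ, at 3.78 ± 0.829 CPM, and passed as higher there than in C57BL/6J too (log2 fold change 0.59, edgeR adjusted p = 0.0043). Of the other tissues listed, the sum of adipose markers ran highest in CAST/EiJ, with 18.8 to 36.8 CPM against 10.5 to 20.7 CPM in C57BL/6J and 7.25 to 12.9 CPM in NZO/HlLtJ, and red blood cell genes overlapped between strains, at 33.3 to 84.8 CPM.

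Within a strain, the libraries were used to ask whether the genes varied together on the log2 CPM scale. Each gene was also set against a score that averages Star, Cyp11a1, Cyp17a1, Hsd17b3, Insl3 and Lhcgr. Both diets of a strain were pooled and the diet means were not removed. The part of diet in these relations was not tested. In C57BL/6J, Hsd3b1 ran against Hsd3b6 (Pearson r = -0.631, exact permutation p = 0.0908, adjusted 0.298; Spearman rho = -0.833, exact permutation p = 0.0154, adjusted 0.0693, n = 8). Without the 2 libraries farthest from the median of Hsd3b1, r was -0.382. Hsd3b1 also ran against the score in that strain (r = -0.750, exact permutation p = 0.0194, adjusted 0.175; rho = -0.786, exact permutation p = 0.0279, adjusted 0.0837), with r = -0.694 without the 2 farthest libraries. Hsd3b6 and the score had r = 0.399 (exact permutation p = 0.329, adjusted 0.497) and rho = 0.833 (exact permutation p = 0.0154, adjusted 0.0693), and r = 0.883 without the 2 farthest libraries. In CAST/EiJ (n = 7) r was 0.138 for the 2 genes, -0.675 for Hsd3b1 with the score and 0.458 for Hsd3b6 with the score. In NZO/HlLtJ (n = 8) these were -0.305, 0.326 and 0.356. After adjustment over the 9 relations none passed, with exact permutation adjusted p between 0.175 and 0.757 for r and between 0.0693 and 0.783 for rho. The runs of ID numbers hold 2 to 4 libraries of a strain, too few for a value within each.

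Among 14249 genes with a mean of at least 1 CPM, those with the pattern most like Hsd3b1 over the 23 libraries were Il17rb, a cytokine receptor gene (r = 0.991), the guidance cue gene Slit2 (0.990), the Golgi mannosidase gene Man2a2 (0.990), Zmynd8 and Sephs1. Il17rb stood at 3.04 ± 0.764, 3.61 ± 0.786 and 25.4 ± 2.06 CPM in C57BL/6J, CAST/EiJ and NZO/HlLtJ. Most like Hsd3b6 were the purine enzyme gene Pnp2 (0.976), Cdkl4, Ppp1r2-ps1 and Itgb1bp1. Cdkl4, a kinase gene, had 48.6 ± 1.59, 30.0 ± 1.56 and 11.7 ± 0.586 CPM. Most like the log2 ratio were Nmnat3 (0.985), a gene of NAD synthesis at 24.4 ± 1.95, 42.7 ± 5.08 and 147.9 ± 12.4 CPM, then Ubash3a, Zfp280b, Man2a2 and Zmynd8. None of these lies on chromosome 3, and the 23 points share 3 strains, so these r values are descriptions of the strain pattern. On deviations from the 6 group means, the nearest to Hsd3b1 were Snhg6 (0.771), Tbc1d4, Il17rb, Crim1 and Atf6, and the nearest to Hsd3b6 were Cidea (0.840), Pm20d1, Taf1c, Papss1 and Tor1b. Il17rb was the only gene on both lists for Hsd3b1.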

How the data were processed

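Testis RNA of 23 libraries in 6 groups was analysed. The deposited table holds estimated counts per gene, 23.1% of them not whole, made by the authors. A second deposited table holds log2 values after a variance-stabilising transformation by the authors. Per the submitters' processing notes, the build was GRCm38 and DESeq2 was used. For the aligner, counting tool, annotation release and treatment of strain variants: not given in the sources used here. Each gene in the table was above 0 in at least 12 of 23 libraries.

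The 2 members, the gene lists, the tests and the promoter motifs were chosen with earlier results of these data known. Estimated counts were rounded, filtered with filterByExpr, scaled by TMM and tested with edgeR 4.0.16 (quasi-likelihood, all groups in 1 fit) in R 4.3.3, with Benjamini-Hochberg adjustment over 22873 genes and a threshold of 0.05. The test was checked on simulated data. CPM are counts per 1e+06 effective counts. The sum and ratio of the members were taken per kilobase of transcript, the ratio after adding 0.5 counts. Sums and ratios were compared between diets by exact permutation tests over all regroupings of the libraries, written in Python 3.11.15. The test was checked against that of scipy 1.17.1 on a small example. Likeness to other genes used log2 CPM with a prior count of 2.

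Named genes were the members and other Hsd3b genes, 6 core Leydig genes, genes within 500 kb, up to 4 passing members per list and comparison, and the 5 most alike genes per pattern; Nr5a1 in NZO/HlLtJ, Fabp3, Klk1b27, Akr1c21 and Cyp21a1 come from the lists, and Cyp11b1 and Cyp11b2 were added as defining adrenal genes after their values were seen. Of the genes so named, those not needed for a result were left out, and some are not reported here. Alternatives were RLE scaling, library totals, no filter, DESeq2 1.42.0, limma 3.58.1 on the deposited log2 values, the run of ID numbers as covariate, the libraries of 1 strain alone, and each library left out.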

Additional observations from a re-analysis of the deposited data

Results flagged for a closer look

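In groups of 4 libraries, a library far from the other 3 was looked for in each of 4 measures, 20 sets in all, of which chance marks about 1 in 20. 5 values from 3 libraries stood apart. NZO/HlLtJ 10% fat replicate 4 had 353.9 CPM of Hsd3b1, while the other 3 libraries lay between 280.8 and 286.4 CPM, and a sum of 194.8 CPM per kilobase against 154.7 to 157.7. The same library had the highest summed Leydig markers of all 23 libraries, 1392 CPM, and 1313 CPM of Sertoli markers. C57BL/6J 10% fat replicate 4 had 58.6 CPM of Hsd3b6, while the other 3 lay between 93.2 and 100.2 CPM, and a sum of 70.1 CPM per kilobase against 81.5 to 83.8. Its Leydig markers summed to 845 CPM, inside the 802 to 856 CPM of the strain. C57BL/6J 44% fat replicate 3 had a sum of 61.4 CPM per kilobase against 80.9 to 83.3, with Leydig markers at 802 CPM, the lowest of the strain. The part of these markers in the values was not tested.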

How the results depend on the processing

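No result on the members crossed the threshold under an alternative. The sign turned in 5 cases. Leaving out 1 library at a time moved the diet difference of Hsd3b6 in C57BL/6J between -0.29 and 0.0097 (log2 fold change) and that of the log2 sum between -0.12 and 0.0462, with the positive values, 0.0097 and 0.0462, both without C57BL/6J 44% fat replicate 3. Without the 2 libraries farthest from the median, r turned to -0.404 for Hsd3b1 with Hsd3b6 and -0.195 for Hsd3b6 with the score in CAST/EiJ, and to -0.346 for Hsd3b6 with the score in NZO/HlLtJ. The cause was not tested. For Hsd3b6 in NZO/HlLtJ the diet difference ran from -0.89 to -0.32 over 15 alternatives, with adjusted p between 0.222 and 1, the smallest size on the deposited log2 scale, which compresses low counts. The strain folds ran from 2.38 to 2.498 for Hsd3b1 and from -4.20 to -4.05 for Hsd3b6 in NZO/HlLtJ minus C57BL/6J over 21 alternatives. By DESeq2, 7 genes passed for diet in NZO/HlLtJ against 1 by edgeR. No paired analysis was possible because the labels give no replicate numbers that groups share. Fewer than 5 libraries per group limit the diet tests, and the low Hsd3b6 counts in NZO/HlLtJ, 126 to 301 per library, limit its precision.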
